A study of Mus musculus with 18 samples.

Results

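The genes described here were 10 members of the BCL2 family, the proteins that decide whether the outer mitochondrial membrane stays intact. They were chosen by symbol and comprised 3 pro-survival genes (Bcl2, Bcl2l1 and Mcl1), 2 effector genes (Bax and Bak1) and 5 BH3-only genes (Bcl2l11, Bid, Bbc3, Pmaip1 and Bmf). All 10 were present among the 54232 genes of the count table, and all 10 were among the 17074 genes that passed the filter on low counts. In the BCL2 family, the effectors BAX and BAK form pores that release cytochrome c, the pro-survival proteins bind and restrain them, and the BH3-only proteins report stress or loss of growth signals by occupying the pro-survival proteins or by engaging the effectors directly. Dendritic cells (DCs) are short-lived once mature, and BCL2, BCL-XL, MCL1 and BIM are among the proteins known to set how long they persist. Because the proteins act by binding each other, the relative levels of the classes are often described as a balance.

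The data were 18 RNA-seq libraries of DCs from C57BL/6J mice with a CD11a knockout, a genotype shared by every group, so nothing here compares knockout with wild-type cells. Itgal is the gene of CD11a, an integrin subunit that pairs with CD18 to form LFA-1. DCs of 3 subsets, single-positive for CD11b (CD11b+), single-positive for CD103 (CD103+) and positive for both (double-positive), were taken from the small intestinal lamina propria (LP) and from the intestinal lymph node (LN), which gave 6 groups of 3 libraries. In the intestine the CD103+ subset corresponds largely to cDC1 and the subsets with CD11b to cDC2, and both move to the lymph node through lymph as they mature. The labels gave no age, did not say which part of Itgal was removed, and did not say whether libraries of a group came from separate animals, so the p-values measure only the spread between these samples, which may be technical. For its own DCs of the small intestinal lamina propria the study describes a sort of live CD45+ cells with high MHC class II and CD11c and without CD64, a macrophage marker, but no source used here states the gate for these knockout cells. Wild-type DCs were not analysed here.

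Total counts ran from 23574292 to 46901985 per library with a median of 27356482. Itgal was counted in all 18 libraries, at 17.6 to 26.6 CPM (read counts scaled to the TMM-adjusted library total) in the lamina propria and 6.45 to 23.0 CPM in the lymph node; without the deleted exons or wild-type libraries this does not check the knockout. The CD103+ label fitted its markers in the lamina propria. The summed level of 6 cDC1 markers there was 7726 to 8232 CPM in CD103+ DCs and 257 to 317 CPM in the others. No marker of cDC1 or of cDC2 was called between CD11b+ and double-positive DCs there, so these markers do not separate those labels. The cDC1 sum in the lymph node was 1988 to 2056 CPM in CD103+ DCs and 579 to 1118 CPM in the others. The mean sum of 5 cDC2 markers in the lymph node was 1056 CPM in CD11b+, 221 CPM in double-positive and 46.2 CPM in CD103+ DCs. In double-positive DCs it was below the mean cDC1 sum of 1040 CPM. Itgam, which encodes CD11b, averaged 20.8 CPM in lymph node CD11b+ DCs, 5.16 CPM in double-positive DCs and 0.438 CPM in CD103+ DCs. All 9 lamina propria libraries held the Y-linked transcript Ddx3y, at 50.0 CPM or more, and at most 0.285 CPM of Xist, whereas all 9 lymph node libraries held Xist, at 15.3 CPM or more. Sex and tissue therefore cannot be told apart. Ddx3y was also present in the third libraries of lymph node CD11b+ DCs (58.0 CPM) and lymph node double-positive DCs (52.1 CPM), so these 2 held transcripts of both sexes, and results are given with and without them where a call depends on it.

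The members are recognised by the BH3 motif, the short helix by which one class docks into the groove of another. The coding sequence of its core is shown for 9 members because it is the feature that all 3 classes share, although the selection used names alone. Each run below was read from the GENCODE vM21 transcript sequences, with its GRCm38 position from the GENCODE vM21 annotation. Each lies in 1 coding exon and is written 5′ to 3′ on the coding strand. Capitals mark the 6 codons for leucine, any 3 residues, glycine or alanine, and aspartate.
Bcl2 (chr1:106712572-106712613, minus strand): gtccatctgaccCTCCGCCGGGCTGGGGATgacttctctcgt
Bcl2l1 (chr2:152829694-152829735, minus strand): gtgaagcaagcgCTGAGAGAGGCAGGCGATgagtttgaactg
Mcl1 (chr3:95659424-95659465, plus strand): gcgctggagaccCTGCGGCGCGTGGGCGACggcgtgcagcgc
Bcl2l11 (chr2:128147138-128147179, plus strand): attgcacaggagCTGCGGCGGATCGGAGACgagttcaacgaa
Bax (chr7:45465994-45466035, minus strand): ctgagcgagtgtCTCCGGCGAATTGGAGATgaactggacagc
Bak1 (chr17:27022528-27022569, minus strand): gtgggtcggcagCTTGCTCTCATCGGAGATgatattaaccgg
Bid (chr6:120897286-120897327, minus strand): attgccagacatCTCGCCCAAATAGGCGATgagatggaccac
Bbc3 (chr7:16313761-16313802, plus strand): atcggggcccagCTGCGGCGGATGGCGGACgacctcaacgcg
Bmf (chr2:118545097-118545138, minus strand): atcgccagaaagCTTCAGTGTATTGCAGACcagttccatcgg
The search of the translated coding sequence found this pattern once in each of the 9 proteins. The fifth codon in capitals coded for alanine in Bbc3 and Bmf and for glycine in the others, so the pattern did not separate the pro-survival, effector and BH3-only classes.

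Between lamina propria and lymph node, 4 members rose in all 3 subsets: the pro-survival gene Bcl2l1 and the BH3-only genes Bcl2l11, Bbc3 and Pmaip1. Bcl2 rose in CD11b+ DCs alone among the calls, Bmf rose in CD103+ and double-positive DCs, and Mcl1, Bax, Bak1 and Bid did not pass the fold limit in any subset. A gene was called when its Benjamini-Hochberg adjusted p in the quasi-likelihood test of edgeR was under 0.01 and its fold change exceeded 2, the thresholds of the study. In CD11b+ DCs, 5 of the 10 members were called, all higher in the lymph node, where 15.2% of all genes tested were called, 10.3% as higher and 4.93% as lower. In CD103+ DCs, 5 members were called higher, beside 35.0% of all genes called, 19.8% higher and 15.1% lower. In double-positive DCs, 5 members were again called higher, beside 32.1% of all genes called, 18.6% higher and 13.6% lower. The median log2 fold change of the 10 members was 0.82, 0.94 and 1.03 in the CD11b+, CD103+ and double-positive comparisons, and that of all genes tested was 0.03, 0.04 and 0.07. With no limit on fold change, 6 members passed in CD11b+ DCs (26.8% of all genes), 7 in CD103+ DCs (51.7%) and 8 in double-positive DCs (49.6%). Scaling by total counts moved the median of all genes by 0.14, -0.21 and -0.17 in the 3 comparisons, and under it the 4 members that rose in every subset were called again. In bulk libraries of sorted cells, more RNA of a gene per cell and more cells carrying it cannot be told apart.

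**Figure D1:**
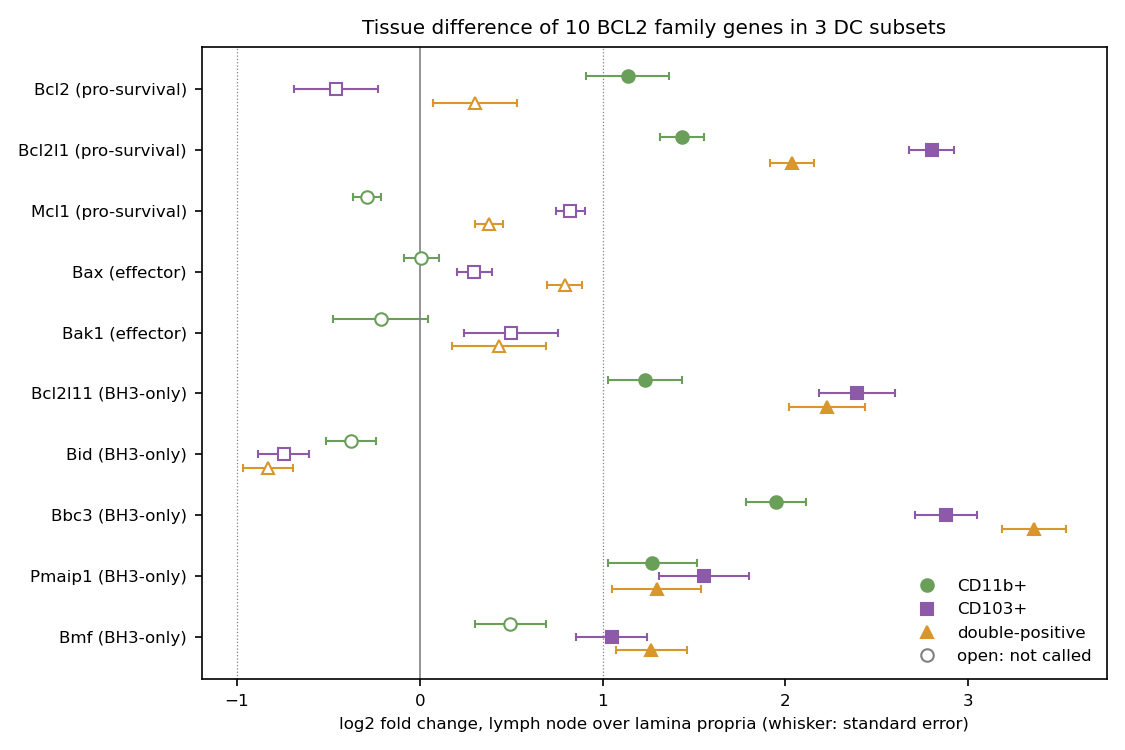
Difference between lymph node and lamina propria for each of the 10 members, as log2 fold change on the horizontal axis with its standard error, for CD11b+ (circles), CD103+ (squares) and double-positive (triangles) DCs. Filled symbols were called, dotted lines mark a fold change of 2 in either direction, and the filled symbols all lie to the right of the line at 1, with Bbc3 in double-positive DCs the farthest at 3.36.

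Other cell types and DC maturation moved with tissue. Of 12 T cell markers, 12, 11 and 12 were called higher in the lymph node in CD11b+, CD103+ and double-positive DCs, and their summed level was 16.1 to 229 CPM in the lamina propria and 439 to 872 CPM in the lymph node. The highest group means of this sum were those of CD103+ DCs in either tissue, where Cd8a, which some DCs also express, made up much of the lamina propria value with a mean of 196 CPM. Of 10 genes of DC maturation, 7 were called higher in each of the 3 subsets and 1 lower in CD103+ and double-positive DCs, and their sum went from 1019 to 2741 CPM across lamina propria libraries to 4195 to 28513 CPM across lymph node libraries. Of 9 B cell markers, 6, 5 and 6 were called higher in the lymph node and 1 was called lower in CD103+ DCs. Their mean sum went from 436 to 889 CPM in CD11b+ DCs and from 476 to 697 CPM in double-positive DCs, whereas it went from 537 to 292 CPM in CD103+ DCs. Of 10 macrophage markers, 5, 4 and 7 were called lower and 1, 1 and 0 higher, and of 11 epithelial markers, 9, 2 and 6 were called lower. Markers of DC identity moved as well. The mean sum of 5 general DC markers went from 68937 to 42587 CPM in CD11b+ DCs, from 67065 to 19240 CPM in CD103+ DCs and from 75463 to 45051 CPM in double-positive DCs, with 0, 3 and 2 called lower and 0, 0 and 1 higher. Of 6 cDC1 markers, 3 and 4 were called higher in CD11b+ and double-positive DCs and 5 were called lower in CD103+ DCs. Of 5 cDC2 markers, 2, 1 and 4 were called lower and 0, 2 and 0 higher, and in double-positive DCs their mean sum went from 2822 to 221 CPM. The part of these differences in the member results was not tested.

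Bcl2, the founding pro-survival gene (ENSMUSG00000057329, chr1:106538178-106714274, minus strand), was at 30.6, 27.0 and 21.9 CPM in the 3 lamina propria CD11b+ libraries and at 43.9, 84.0 and 46.8 CPM in the lymph node CD11b+ libraries. It was lower in every other library, at 13.4, 15.8 and 17.5 CPM in lamina propria CD103+ DCs, 13.3, 11.7 and 8.78 CPM in lamina propria double-positive DCs, 13.2, 11.6 and 9.11 CPM in lymph node CD103+ DCs and 13.3, 14.8 and 13.7 CPM in lymph node double-positive DCs. The CD11b+ libraries were thus above the rest in both tissues, without overlap. The sum of macrophage markers was also highest in CD11b+ DCs, and the part of this in the Bcl2 levels was not tested. It averaged 1026 CPM in the lamina propria, against 51.3 CPM in CD103+ and 343 CPM in double-positive DCs. In the lymph node it averaged 438 CPM, against 14.7 and 96.2 CPM. The B cell marker sum was highest in CD11b+ DCs in the lymph node but lowest there in the lamina propria. Bcl2 of the lymph node was lower in CD103+ than in CD11b+ DCs, with a log2 fold change of -2.36 ± 0.24 (SE, adjusted p = 2.9e-07 by edgeR), and lower in double-positive than in CD11b+ DCs (-2.07 ± 0.23, adjusted p = 2.2e-06). In the lamina propria it was lower in double-positive than in CD11b+ DCs (-1.23 ± 0.23, adjusted p = 1.6e-03), a call that depended on the third double-positive library: without it the log2 fold change was -1.08 and the adjusted p was 1.3e-02. CD103+ against CD11b+ DCs of the lamina propria gave -0.77 ± 0.23 with an adjusted p of 0.014. The rise in CD11b+ DCs between tissues (1.14 ± 0.23, adjusted p = 8.1e-04) rested in part on the second lymph node library, without which it was 0.78 and under the fold limit, and it was lost with only the 6 libraries compared in the fit (adjusted p = 1.2e-02). That library had the highest T cell marker sum of its group, 826 CPM against 652 and 545 CPM, and the lowest B cell marker sum, 605 CPM against 943 and 1120 CPM. The part of these cells in the result was not tested. In CD103+ and double-positive DCs the tissue difference of Bcl2 was -0.46 ± 0.23 and 0.30 ± 0.23, neither past the threshold. Of the exon bases of Bcl2, 6.09% overlap another annotated gene on the opposite strand.

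Bcl2l1, which encodes BCL-XL (ENSMUSG00000007659, chr2:152780668-152831728, minus strand), was at 14.7, 15.7 and 20.2 CPM in lamina propria CD11b+ DCs and 41.3, 48.9 and 46.5 CPM in their lymph node counterparts. In CD103+ DCs it went from 19.8, 17.0 and 20.7 CPM to 131, 133 and 136 CPM, and in double-positive DCs from 25.1, 25.8 and 30.6 CPM to 102, 111 and 122 CPM. No lymph node library overlapped any lamina propria library. The log2 fold change was 1.43 ± 0.12 in CD11b+ DCs (adjusted p = 1.5e-07 by edgeR), 2.80 ± 0.13 in CD103+ DCs (9.0e-12) and 2.04 ± 0.12 in double-positive DCs (4.3e-10). The order of the groups in the lymph node, CD103+ above double-positive above CD11b+, had no overlap between neighbours, but CD103+ and double-positive DCs differed by an amount that did not pass the test (double-positive minus CD103+ -0.26 ± 0.12, adjusted p = 0.12). Both exceeded CD11b+ DCs there, by 1.55 ± 0.12 and 1.29 ± 0.12 on the log2 scale. Within the lamina propria, double-positive DCs were highest, 0.69 ± 0.12 above CD11b+ DCs (adjusted p = 9.8e-04), which is under the fold limit.

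Mcl1, a short-lived protein's gene that many leukocytes need for survival (ENSMUSG00000038612, chr3:95658788-95663176, plus strand), had the highest level per kilobase of all members in 4 of the 6 groups, and was below Pmaip1 in lymph node CD11b+ and double-positive DCs. It was at 1049, 1007 and 935 CPM in lamina propria CD11b+ DCs, 719, 711 and 737 CPM in CD103+ DCs and 1098, 1039 and 901 CPM in double-positive DCs. Its lymph node levels were 809, 805 and 833 CPM in CD11b+ DCs, 1256, 1312 and 1268 CPM in CD103+ DCs and 1262, 1292 and 1392 CPM in double-positive DCs. Mcl1 was therefore lower in lymph node than lamina propria CD11b+ DCs (-0.29 ± 0.08, adjusted p = 6.9e-03 by edgeR) and higher in lymph node CD103+ DCs (0.82 ± 0.08, 8.5e-08) and double-positive DCs (0.38 ± 0.08, 4.6e-04). None of these reached a fold change of 2, and with total counts the differences in CD11b+ DCs (-0.15, adjusted p = 0.11) and double-positive DCs (0.20, 2.4e-02) no longer passed. The groups compared did not overlap in any of the 3 cases.

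The effector Bax (ENSMUSG00000003873, chr7:45461697-45466898, minus strand) ranged from 70.8 to 91.7 CPM over the 9 lamina propria libraries. Lymph node libraries had 83.4, 84.2 and 83.5 CPM in CD11b+ DCs, 95.7, 97.8 and 126 CPM in CD103+ DCs and 128, 138 and 121 CPM in double-positive DCs. All 3 double-positive values exceeded every lamina propria value. The tissue difference was 0.79 ± 0.09 in double-positive DCs (adjusted p = 1.8e-06 by edgeR), 0.30 ± 0.09 in CD103+ DCs (0.011) and 0.01 ± 0.09 in CD11b+ DCs (0.96). Of its exon bases, 12.2% are shared with another annotated gene. Bak1, the second effector (ENSMUSG00000057789, chr17:27019810-27029009, minus strand), was the lowest member in CPM, at 1.75 to 4.99 CPM (54 to 147 counts) over all libraries, and no tissue difference passed. Within the lymph node it was at 4.02, 4.26 and 4.56 CPM in double-positive DCs and 2.31, 1.75 and 2.16 CPM in CD11b+ DCs, a log2 fold change of 1.04 ± 0.26 (adjusted p = 3.8e-03). This call was lost on leaving out any one of 4 of the 6 libraries and on leaving out both libraries with transcripts of both sexes (1.02, adjusted p = 3.2e-02), as well as with total counts and with no filter. Of the exon bases of Bak1, 25.5% overlap Ggnbp1 on the opposite strand, and counting without strand would not separate the 2 genes.

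**Figure D2:**
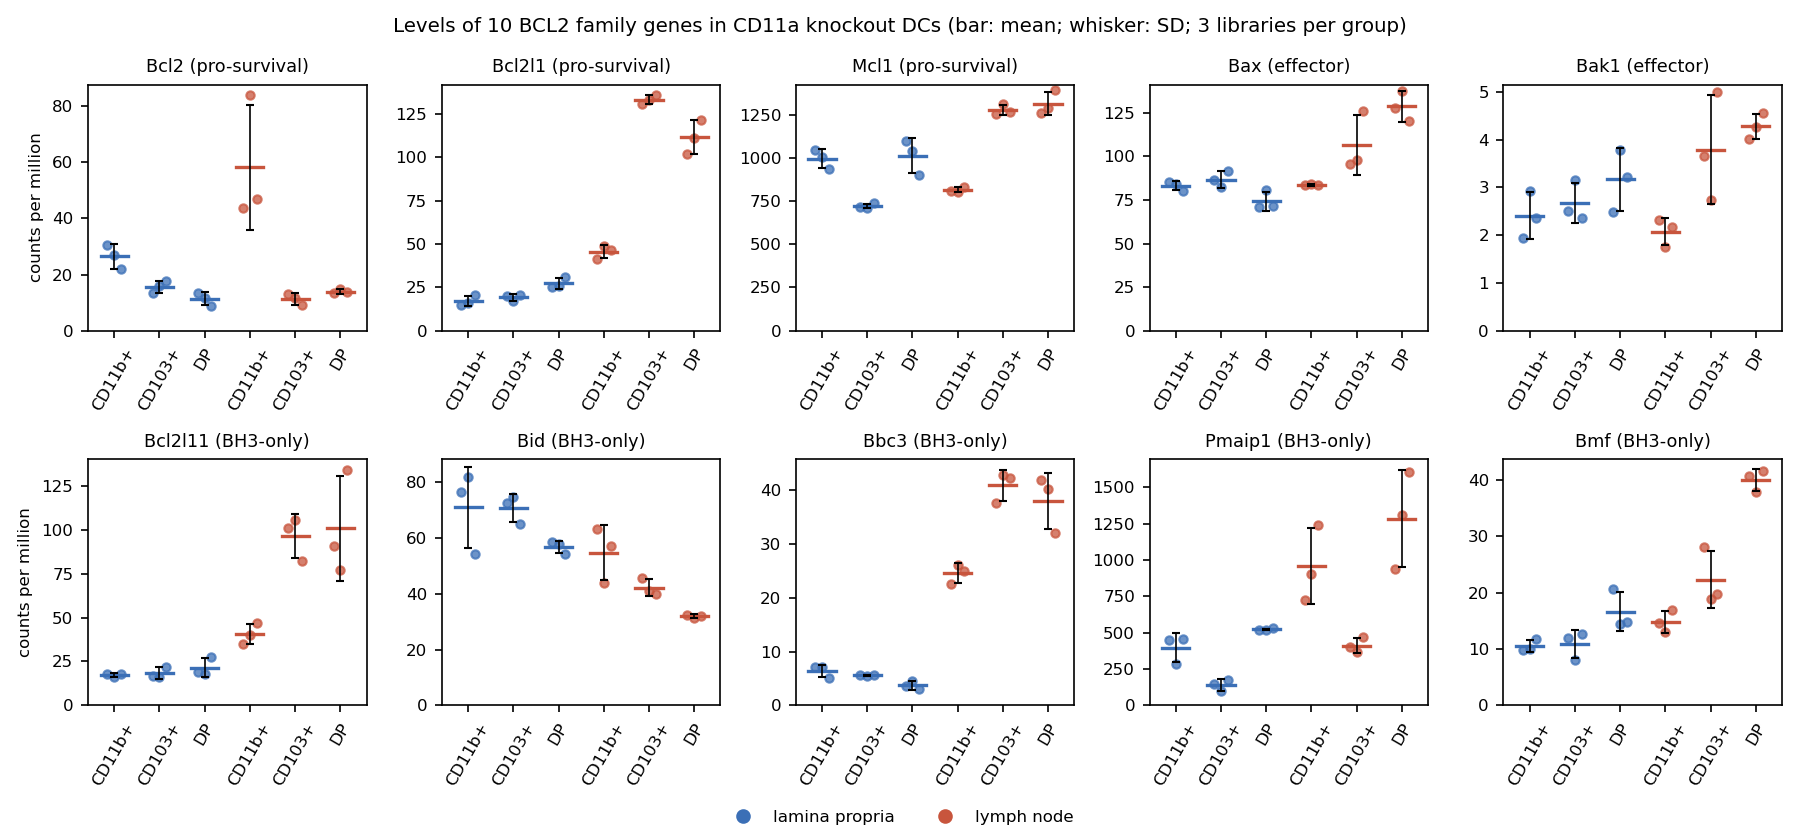
Levels of the 10 members in CPM on a linear axis from 0, 1 panel per gene, with 1 point per library, a bar for the mean and a whisker for the SD of 3 libraries, in lamina propria (blue) and lymph node (red). Bcl2l1, Bcl2l11 and Bbc3 are higher in every lymph node library than in any lamina propria library, whereas Bcl2 stands out in CD11b+ DCs and Bid runs lower in the lymph node.

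Bcl2l11, which encodes BIM, the BH3-only protein best known for removing lymphocytes and DCs when their signals end (ENSMUSG00000027381, chr2:128126038-128162547, plus strand), was at 18.1, 15.9 and 18.1 CPM in lamina propria CD11b+ DCs and 35.3, 40.2 and 47.0 CPM in the lymph node. In CD103+ DCs it went from 16.9, 16.4 and 22.1 CPM to 101, 106 and 82.1 CPM, and in double-positive DCs from 19.3, 17.7 and 27.6 CPM to 90.9, 77.4 and 135 CPM. The tissues did not overlap. The log2 fold changes were 1.23 ± 0.20 (adjusted p = 1.6e-04 by edgeR), 2.39 ± 0.21 (3.4e-08) and 2.23 ± 0.21 (9.0e-08). Within the lymph node, Bcl2l11 was higher in CD103+ and double-positive DCs than in CD11b+ DCs, by 1.24 ± 0.20 and 1.31 ± 0.20. Both calls were lost with total counts as the scale, where the differences were 0.81 and 0.94 and under the fold limit. In the lamina propria the 3 subsets overlapped.

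Bbc3, which encodes PUMA, a p53 target that binds all pro-survival members (ENSMUSG00000002083, chr7:16308393-16318205, plus strand), was at 7.10, 7.06 and 5.02 CPM in lamina propria CD11b+ DCs, 5.62, 5.46 and 5.63 CPM in CD103+ DCs and 3.61, 4.54 and 2.96 CPM in double-positive DCs. In the same order of subsets, lymph node libraries were at 22.6, 26.2 and 25.1 CPM, 37.7, 42.8 and 42.4 CPM, and 41.9, 40.3 and 32.1 CPM. Every lymph node library exceeded every lamina propria library. Its tissue log2 fold change was the largest of the 10 members in each subset, although in CD103+ DCs it differed from that of Bcl2l1 by less than 1 SE. It was 1.95 ± 0.16 in CD11b+ DCs (adjusted p = 1.3e-07 by edgeR), 2.88 ± 0.17 in CD103+ DCs (2.4e-10) and 3.36 ± 0.17 in double-positive DCs (7.3e-11). Double-positive DCs were lowest of the 3 subsets in the lamina propria, 0.78 ± 0.17 below CD11b+ DCs (adjusted p = 4.2e-03).

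Pmaip1, which encodes NOXA, the BH3-only protein that binds MCL1 with preference (ENSMUSG00000024521), was the most abundant BH3-only member in every group. It was at 451, 281 and 456 CPM in lamina propria CD11b+ DCs, 148, 97.4 and 174 CPM in CD103+ DCs and 519, 520 and 529 CPM in double-positive DCs. Pmaip1 in the lymph node was at 723, 904 and 1239 CPM in CD11b+ DCs, 399, 364 and 467 CPM in CD103+ DCs and 936, 1309 and 1603 CPM in double-positive DCs. CD103+ DCs were thus lowest in both tissues, without overlap with the other subsets of the same tissue. Pmaip1 rose between tissues by 1.27 ± 0.24 in CD11b+ DCs (adjusted p = 5.9e-04 by edgeR), 1.55 ± 0.25 in CD103+ DCs (3.6e-05) and 1.30 ± 0.24 in double-positive DCs (2.2e-04). Against CD11b+ DCs, CD103+ DCs were lower by a log2 fold change of -1.50 ± 0.25 in the lamina propria (adjusted p = 1.2e-04) and -1.22 ± 0.24 in the lymph node (4.4e-04), and double-positive DCs exceeded CD103+ DCs by 1.90 ± 0.25 and 1.65 ± 0.25. The lymph node difference from CD11b+ DCs fell just under the fold limit, to -0.99, without the libraries with transcripts of both sexes, and the third libraries of CD11b+ and double-positive DCs had the highest Pmaip1 of their groups.

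Bmf, whose protein is held on myosin motors until cells detach or are stressed (ENSMUSG00000040093, chr2:118528757-118549687, minus strand), was at 9.87, 10.0 and 11.7 CPM, 11.9, 7.95 and 12.6 CPM, and 20.6, 14.5 and 14.8 CPM in the CD11b+, CD103+ and double-positive DCs of the lamina propria. The corresponding lymph node values were 14.7, 13.0 and 16.9 CPM in CD11b+ DCs, 28.1, 18.9 and 19.8 CPM in CD103+ DCs and 40.7, 37.9 and 41.6 CPM in double-positive DCs. Lymph node double-positive DCs lay above every other library. The tissue log2 fold change was 1.27 ± 0.19 in double-positive DCs (adjusted p = 2.7e-05 by edgeR), 1.05 ± 0.19 in CD103+ DCs (1.8e-04) and 0.49 ± 0.19 in CD11b+ DCs (0.054). The call in CD103+ DCs was close to the fold limit and was lost with total counts as the scale (0.82), with no filter (1.00) and without any one of 5 libraries. Bid, which links death receptors to mitochondria once caspase-8 cleaves it (ENSMUSG00000004446, chr6:120891930-120916853, minus strand), was the only member with lower means in the lymph node in every subset. It ranged from 54.4 to 82.0 CPM in the lamina propria, and was at 63.2, 43.9 and 57.1 CPM, 45.6, 41.1 and 40.1 CPM, and 32.6, 31.3 and 32.2 CPM in lymph node CD11b+, CD103+ and double-positive DCs. Its log2 fold change was -0.37 ± 0.14 (adjusted p = 0.039), -0.75 ± 0.14 (1.7e-04) and -0.83 ± 0.14 (6.8e-05), below a fold change of 2 in each, although with total counts it was called lower in double-positive DCs (adjusted p = 5.7e-06). Of its exon bases, 17.7% overlap Bcl2l13 on the opposite strand.

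The size of the tissue difference was compared between the 3 subsets with an F test on 2 coefficients in the same edgeR fit. It passed an adjusted p of 0.01 for 6 of the 10 members, beside 31.5% of all genes tested. Mcl1 had the smallest adjusted p (1.7e-06), with a fall in CD11b+ DCs and rises in the others. Bcl2l1 (2.2e-05), Bbc3 (2.8e-04) and Bax (5.0e-04) had their smallest tissue difference in CD11b+ DCs. Bcl2 (2.4e-03) had its largest there. Bcl2l11 passed at 5.9e-03, a call lost with total counts (5.3e-02) and on leaving out any one of 9 libraries (up to 3.2e-02). The test did not pass for Bak1 (0.21), Bid (0.13), Pmaip1 (0.74) or Bmf (0.068).

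Subset comparisons within a tissue answered how the 3 DC types differ, and those within a tissue share groups. In the lamina propria 1 member was called in each comparison. CD103+ against CD11b+ DCs gave 1 of 10 members (Pmaip1) beside 15.7% of all genes, or 2 beside 26.0% with no fold limit. Double-positive against CD11b+ DCs gave 1 (Bcl2) beside 4.81%, or 3 beside 7.61% with no fold limit. Double-positive against CD103+ DCs gave 1 (Pmaip1) beside 13.6%, or 3 beside 24.0% with no fold limit. In the lymph node more members, and a larger share of all genes, were called in both comparisons with CD11b+ DCs. CD103+ against CD11b+ DCs gave 4 (Bcl2 and Pmaip1 lower, Bcl2l1 and Bcl2l11 higher) beside 25.9%, or 8 beside 42.9% with no fold limit. Double-positive against CD11b+ DCs gave 5 (Bcl2 lower, Bcl2l1, Bak1, Bcl2l11 and Bmf higher) beside 16.7%, or 9 beside 32.3% with no fold limit. Double-positive against CD103+ DCs gave 1 (Pmaip1) beside 6.53%, or 2 beside 15.4% with no fold limit. Scaling by total counts moved the median log2 fold change of all genes by 0.43 for lymph node CD103+ against CD11b+ DCs and by 0.37 for double-positive against CD11b+ DCs, to -0.56 and -0.44. On that scale Bcl2l11 was no longer called in either comparison, Bcl2l1 and Bak1 were not called in double-positive DCs, Bid was called lower in double-positive DCs, and the higher Bax of CD103+ DCs (0.35 ± 0.09) became -0.086.

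For levels that can be compared between genes, CPM was divided by the length of each gene's annotated exons in kilobases. Mcl1 made up 97.8% ± 0.19, 97.3% ± 0.18 and 97.6% ± 0.38 (SD, n = 3) of the summed per-kilobase level of the 3 pro-survival genes in lamina propria CD11b+, CD103+ and double-positive DCs. Its lymph node share was 93.6% ± 1.2, 92.5% ± 0.17 and 93.7% ± 0.22. Bcl2l1 took most of the remainder in lymph node CD103+ DCs, where its share was 7.18% ± 0.19 and that of Bcl2 was 0.306% ± 0.057. In lymph node CD11b+ DCs the shares of Bcl2l1 and Bcl2 were 3.89% ± 0.29 and 2.49% ± 0.95. Among the BH3-only genes, Pmaip1 made up 83.5% ± 5.7, 64.7% ± 7.2 and 89.0% ± 0.41 of the sum in the lamina propria and 90.6% ± 2.2, 75.8% ± 3.0 and 90.5% ± 2.5 in the lymph node. Bid was next in the lamina propria, with 26.3% ± 6.6 in CD103+ DCs, while in lymph node CD103+ DCs Bbc3 took 9.81% ± 1.1, Bcl2l11 6.16% ± 1.3 and Bid 6.06% ± 0.74. Bax made up 97.3% to 98.4% of the effector sum in all 6 groups.

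The ratio of the summed pro-survival to the summed BH3-only level of the members described their balance. As log2, it was 0.81 ± 0.32 (SD, n = 3) in lamina propria CD11b+ DCs, 1.49 ± 0.24 in CD103+ DCs and 0.49 ± 0.15 in double-positive DCs. In the lymph node it was -0.56 ± 0.33 in CD11b+ DCs, 1.04 ± 0.15 in CD103+ DCs and -0.30 ± 0.28 in double-positive DCs. Every library of the lymph node lay below all those of the same subset in the lamina propria, and CD103+ DCs had the highest value in each tissue. No test was made of this ratio. Because Mcl1 and Pmaip1 dominated both sums, it followed their own ratio closely, which went from 1.04 ± 0.42 to -0.52 ± 0.37 in CD11b+ DCs, from 2.09 ± 0.41 to 1.33 ± 0.21 in CD103+ DCs and from 0.63 ± 0.16 to -0.25 ± 0.33 in double-positive DCs. Averaging the log2 levels within each class, which gives every gene the same weight, put the 3 subsets at 0.83, 0.80 and 0.60 in the lamina propria and at 0.66, 0.42 and 0.054 in the lymph node. The lower means in the lymph node held under that choice, but the side of 0 and the place of CD103+ DCs as highest did not. Other BCL2 family genes were left out, among them the near-identical copies Bcl2a1a, Bcl2a1b and Bcl2a1d, whose counts are uncertain. Between tissues in double-positive DCs, their means went from 78.1 to 303, 18.9 to 69.3 and 165 to 404 CPM. Bcl2l1 went from 27.2 to 111.5 CPM there, and Mcl1, most of the pro-survival sum, from 1013 to 1315 CPM. The means of the copies were higher in the lymph node in the other subsets too. The copies were not put on the scale per kilobase that the balance uses. The lower balance in the lymph node therefore holds for the members alone, and the part of the copies in it was not tested.

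**Figure D3:**
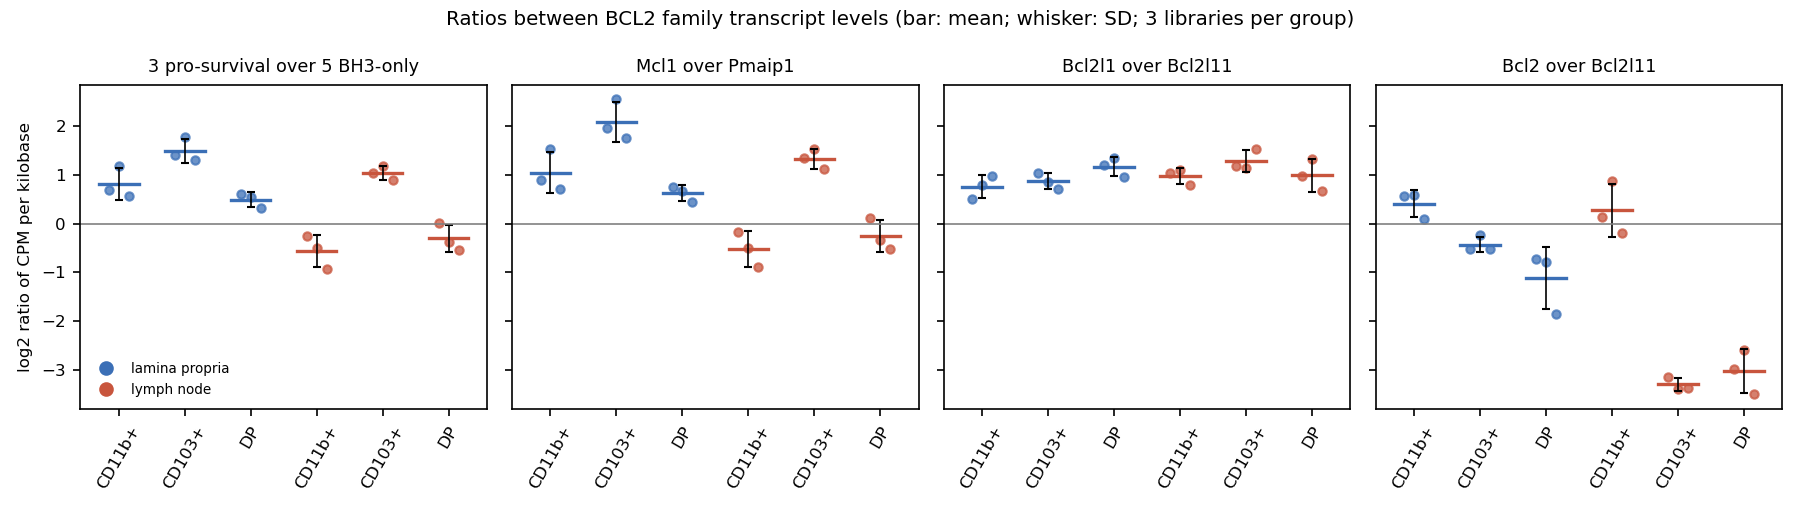
Log2 ratios of CPM per kilobase in each library, with the mean and SD of 3 libraries, for the summed classes and for 3 pairs of genes, in lamina propria (blue) and lymph node (red); the line at 0 marks equal levels. The summed ratio and Mcl1 over Pmaip1 are lower in the lymph node, Bcl2l1 over Bcl2l11 stays between 0.50 and 1.53, and Bcl2 over Bcl2l11 falls to between -3.49 and -2.58 in lymph node CD103+ and double-positive DCs.

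Without Mcl1 and Pmaip1 the remaining genes gave another picture. The log2 ratio of Bcl2 and Bcl2l1 to Bcl2l11, Bid, Bbc3 and Bmf was -2.04 ± 0.29, -2.20 ± 0.15 and -1.72 ± 0.12 in lamina propria CD11b+, CD103+ and double-positive DCs. In the lymph node it was -1.11 ± 0.36, -0.65 ± 0.07 and -0.87 ± 0.13, higher in each subset, with no overlap between tissues. The pair Bcl2l1 and Bcl2l11, which rose together, kept a log2 ratio between 0.50 and 1.53 in all libraries. This ratio was 0.75 ± 0.24, 0.87 ± 0.17 and 1.17 ± 0.20 in the lamina propria and 0.97 ± 0.16, 1.28 ± 0.22 and 0.99 ± 0.33 in the lymph node. In CD103+ DCs the lymph node libraries lay above those of the lamina propria without overlap. Across libraries the log2 levels of Bcl2l1 and Bcl2l11 had a Pearson r of 0.932 over the 9 lymph node libraries and 0.695 over the 9 lamina propria libraries, which share depth, scale and group structure. Bcl2l1 and Bbc3, by contrast, had an r of 0.921 in the lymph node and -0.938 in the lamina propria. The ratio of Bcl2 to Bcl2l11 varied more between groups than the other ratios computed. It was 0.41 ± 0.28 in lamina propria and 0.27 ± 0.55 in lymph node CD11b+ DCs, against -3.29 ± 0.14 in lymph node CD103+ DCs and -3.01 ± 0.46 in lymph node double-positive DCs.

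The same pathway was followed in 4 lists of other genes, which were likewise chosen with earlier results known. Of 16 other BCL2 family genes, 14 were tested and 3, 4 and 5 were called higher in the lymph node in CD11b+, CD103+ and double-positive DCs, beside 10.3%, 19.8% and 18.6% of all genes called higher. The median log2 fold changes were 0.51, 0.98 and 1.26. The named genes of this list were Bcl2l14 and Bik. Bcl2l14, a family member whose part in cell death is disputed, rose from 167, 161 and 206 CPM to 1821, 2151 and 1990 CPM in CD103+ DCs (3.48 ± 0.23, adjusted p = 9.1e-10 by edgeR) and from a mean of 59.6 to 580 CPM in double-positive DCs (3.28 ± 0.23), and was at a mean of 26.7 and 53.2 CPM in CD11b+ DCs (0.99 ± 0.21, under the fold limit). Bik, a BH3-only gene, had 5 to 15 counts in lamina propria CD11b+ libraries and 168 to 294 in their lymph node counterparts, and was called there and in double-positive DCs, with 0 to 4 counts in the lamina propria and 25 to 43 in the lymph node. The near-identical copies Bcl2a1a, Bcl2a1b and Bcl2a1d share reads that unique alignment discards, so their counts are uncertain. Most of the calls of this list in each subset came from these copies. Bcl2a1a and Bcl2a1b were called higher in all 3 subsets, and Bcl2a1d in CD103+ and double-positive DCs. The other calls were those of Bik and Bcl2l14 alone.

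Of 15 apoptosome, caspase and inhibitor of apoptosis (IAP) genes, 3 rose in CD11b+ DCs, 4 rose and 2 fell in CD103+ DCs, and 4 rose and 1 fell in double-positive DCs, shares close to the 15.2%, 35.0% and 32.1% of all genes called. The median log2 fold changes were 0.06, 0.16 and -0.03, close to those of all genes. Birc2, which encodes the inhibitor cIAP1, rose in all 3 subsets, by 2.02 ± 0.17, 3.60 ± 0.18 and 3.47 ± 0.18 on the log2 scale, from means of 39.7 to 59.0 CPM to means of 229 to 656 CPM.

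Of 9 death receptor genes, 4 rose and 1 fell in CD11b+ DCs, 4 rose in CD103+ DCs, and 4 rose and 1 fell in double-positive DCs, beside 15.2%, 35.0% and 32.1% of all genes called in either direction. The median log2 fold changes were 0.40, 0.47 and 0.43. Fas, the receptor for Fas ligand, was at 2.09 to 5.80 CPM over the lamina propria libraries. In the lymph node it was at 47.6, 55.3 and 57.4 CPM in CD11b+ DCs, 318, 391 and 407 CPM in CD103+ DCs and 150, 176 and 158 CPM in double-positive DCs. The log2 fold changes were 4.32 ± 0.21, 6.51 ± 0.22 and 5.98 ± 0.22 (adjusted p = 4.0e-10, 4.5e-13 and 2.4e-12 by edgeR), larger than those of any of the 10 members. Tnfrsf10b, which encodes the mouse TRAIL receptor, was scarce, with 4 to 23 counts per lamina propria library and 43 to 165 per lymph node library, and rose by 2.36 ± 0.39, 3.21 ± 0.38 and 3.52 ± 0.43.

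Of 15 regulators and partners of BCL2 family proteins, none was called in CD11b+ DCs by edgeR or DESeq2, beside 15.2% of all genes called. Several passed the adjusted p of 0.01 by edgeR there but stayed under the fold limit. Among them were Ddit3 (0.84 ± 0.14, adjusted p = 1.5e-04) and E2f1 (-0.84 ± 0.14, adjusted p = 1.8e-04). In CD103+ DCs 5 rose and 2 fell, beside 35.0% of all genes called, and in double-positive DCs 3 rose and 1 fell, beside 32.1%. Ddit3, which encodes the stress factor CHOP, a known inducer of Bcl2l11 and Bbc3, rose from 5.80, 7.14 and 6.03 CPM to 21.6, 22.4 and 24.8 CPM in CD103+ DCs (1.86 ± 0.14, adjusted p = 5.5e-09 by edgeR) and by 1.85 ± 0.14 in double-positive DCs. Its symbol has a second, shorter gene entry in the annotation, which leaves its count uncertain. E2f1, a cell cycle factor that also acts on BH3-only genes, fell by 2.48 ± 0.15 on the log2 scale in CD103+ DCs (from 54.7, 55.8 and 47.6 CPM to 9.62, 11.0 and 7.75 CPM) and by 2.11 ± 0.15 in double-positive DCs.

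**Figure D4:**
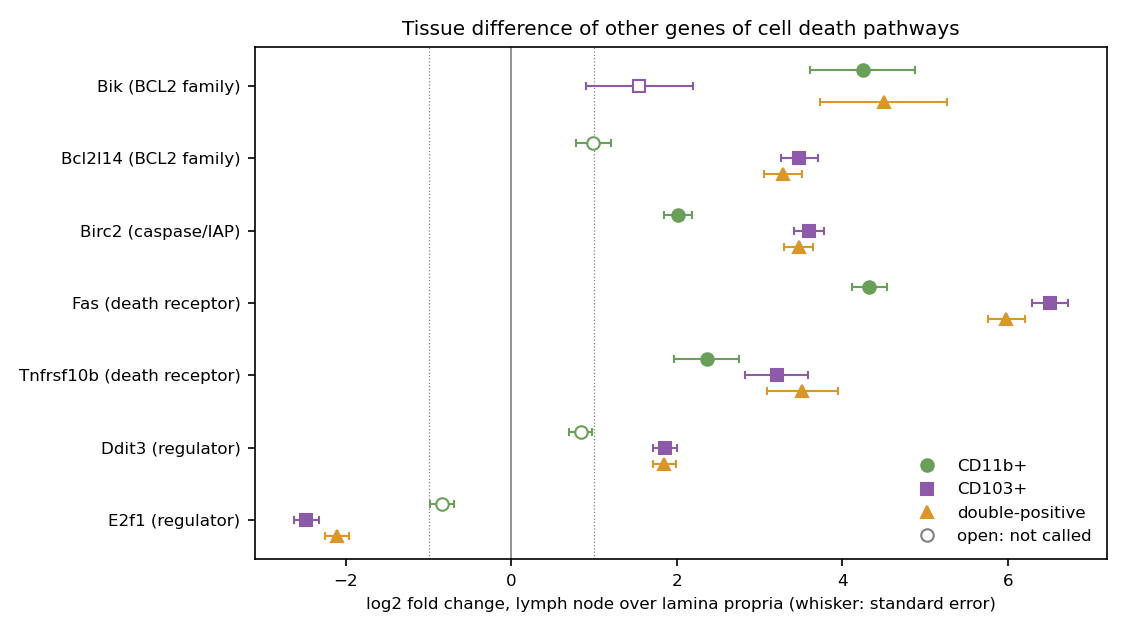
Log2 fold change between lymph node and lamina propria, with its standard error, for 7 named genes of the 4 other lists, chosen for the largest mean tissue difference within their list, in CD11b+ (circles), CD103+ (squares) and double-positive (triangles) DCs. Filled symbols were called; Fas has the largest values, 4.32 to 6.51, and E2f1 is the only one of the 7 with values below 0.

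The genes whose levels ran most like each member over the 18 libraries were found among tested genes with a mean of at least 10 CPM, by Pearson r of log2 CPM. The highest r values were those of Swap70 with Bcl2l1 (0.993) and of Gypc with Bbc3 (0.993), followed by Ric1 with Bcl2l11 (0.987), Pde4b with Pmaip1 (0.976), Rab20 with Mcl1 (0.974) and Trim28 with Bid (0.960). The closest genes to the others were Uba7 for Bmf (0.941), Apip for Bax (0.932), Ehd4 for Bcl2 (0.920) and Calm3 for Bak1 (0.895). These values describe likeness over libraries that fall into 6 groups, and the lowest belonged to Bak1, the member with the fewest counts.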

How the data were processed

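RNA of sorted DCs had been amplified with the SMART-seq v4 kit and sequenced as read pairs. The authors deposited raw read counts per Ensembl gene, without normalisation, for 54232 genes in 18 libraries. The submitters' processing notes name FastQC 0.11.7, STAR 2.6 and GRCm38; for its own DC libraries the study gives unique alignments and counting that ignores strand, so reads in overlapping or near-identical genes are lost or cannot be separated. Symbols and positions came from GENCODE vM21 (54079 genes matched). Genes were filtered with filterByExpr, scaled by TMM and fitted over all 18 libraries with the quasi-likelihood model of edgeR 4.0.16 in R 4.3.3, with Benjamini-Hochberg adjustment over the 17074 genes tested; DESeq2 1.42.0 was an alternative. The fit was tested on simulated data. SE is the absolute log2 fold change divided by the square root of F. Counts of a member ran from 54 (Bak1) to 37525 (Pmaip1) per library, so counting error was largest for Bak1. Named genes were the 10 members, the 2 genes per list with the largest mean tissue difference among those called in a tissue comparison, the gene most like each member, and Itgal, except 1 gene that is not reported here; others are named for overlaps or as markers, or because few genes were called. The members and lists were chosen with earlier results of these data known.

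Replicate letters, read as numbers 1 to 3, were checked for pairing. Deviations of same-numbered libraries correlated at 0.152 or more for CD103+ and CD11b+ DCs and at 0.125 or more for double-positive and CD103+ DCs of the lamina propria, at 0.075 or more for double-positive and CD11b+ DCs there, at 0.015 to 0.129 within the lymph node and at -0.101 to 0.073 between tissues. Alternatives covered scaling, filter, test, thresholds, the libraries fitted, gene length and each library left out.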

Additional observations from a re-analysis of the deposited data

Results flagged for a closer look

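The tissue difference, lymph node against lamina propria, differed between the 3 DC subsets for 6 of the 10 members by the F test of edgeR over 3 libraries per group, with adjusted p over all genes tested, beside 31.5% of all genes. Mcl1 (1.7e-06) was lower in the lymph node in CD11b+ DCs and higher in the other subsets. Bcl2l1 (2.2e-05), Bbc3 (2.8e-04), Bax (5.0e-04) and Bcl2l11 (5.9e-03) had the smallest difference in CD11b+ DCs, and Bcl2 (2.4e-03) had the largest there. The call of Bcl2l11 was lost with total counts (5.3e-02) and on leaving out any one of 9 libraries. Sums of DC maturation genes were also lowest in CD11b+ DCs of the lymph node, at 4195 to 6654 CPM against 22589 to 28513 CPM in the other subsets, and their part in these differences was not tested.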

How the results depend on the processing

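The counts of members called, the list counts and the balance ratios were recomputed under each alternative. With no limit on fold change the count of members became 8 for the tissue difference in double-positive DCs, beside 49.6% of all genes. In the lamina propria it became 2 for CD103+ against CD11b+ DCs, beside 26.0%. Double-positive DCs there gave 3 against CD11b+ DCs, beside 7.61%, and 3 against CD103+ DCs, beside 24.0%. For the same comparisons in the lymph node the counts became 8, 9 and 2, beside 42.9%, 32.3% and 15.4%. With total counts, 3 members were called for double-positive against CD11b+ DCs in the lymph node, beside 3620 of the 17074 genes tested (2857 on the main scale). Bax in CD103+ against CD11b+ DCs there became -0.086. On that scale the share of all called genes that were higher fell from 41.3% to 19.3% and from 39.6% to 19.5% in these 2 comparisons. Leaving out 1 library gave 0 to 1 members for double-positive against CD11b+ DCs in the lamina propria (0 without the third double-positive library) and 1 to 2 for double-positive against CD103+ DCs in the lymph node (2, with Bmf added, without the first CD103+ library). Averaging log2 levels moved the balance to 0.80 in lamina propria CD103+ DCs and to 0.66, 0.42 and 0.054 in lymph node CD11b+, CD103+ and double-positive DCs. That average gives every gene the same weight, whereas Mcl1 and Pmaip1 dominated the sums. Dividing by exon bases shared with no other gene, chosen after seeing the data, moved the balance by less than 1 SD in all 6 groups. With the replicate block over all 18 libraries the counts of members stayed at 5, 5 and 5 for the tissue differences, 1, 1 and 1 in the lamina propria, 4, 5 and 1 in the lymph node and 6 for the F test, and the paired fit within 1 tissue changed no call either. Depth limits Bak1, with 54 to 147 counts per library.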
